A study of Homo sapiens with 9 samples.

Results

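The subject is the untreated state of GM12878, an established human lymphoblastoid line made by transforming the B lymphocytes of 1 donor with Epstein-Barr virus, and its members are the 3 arrays titled as having no treatment. They were chosen by title alone from a series of 9 arrays, and the 6 arrays of sulforaphane-treated cells entered no value given here. Each untreated array held RNA from a separate culture, set up at 900000 cells per ml in RPMI 1640 medium with 15% heat-inactivated fetal bovine serum and taken at 0 h. The shared treatment protocol also names a vehicle of 0.1% DMSO, and the labels do not say whether the 0 h cultures received it. RNA was hybridised to Affymetrix Human Exon 1.0 ST arrays, and the deposited values are log2 signals, so that a step of 1 is a 2-fold change of signal. The table held 22011 transcript clusters, each the set of probes assigned to a gene region, of which 14432 carried a single gene symbol and covered 14232 genes. All 14232 genes were ranked by the mean of the 3 arrays.

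A resting B cell recognises antigen through its receptor, presents peptides on MHC class II and divides only when stimulated. Epstein-Barr virus replaces that stimulus: viral latency proteins are known to mimic CD40 and antigen receptor signals, to activate NF-kB and to drive continuous division as activated lymphoblasts. Dividing cells draw on glycolysis, ribosome production and NADPH, and the glutathione and thioredoxin systems use that NADPH to reduce peroxides. The transcription factor NRF2, held down by KEAP1, induces many genes of these systems.

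Levels are described by rank and against a floor. A gene's percentile rank runs from 0 to 100, where 100 is the brightest of the 14232 genes. A dim level was set from 259 genes of families that B cells are not known to use, 225 olfactory receptors and 34 hair keratin-associated proteins. Their 3-array means had a median of 5.83 and a 95th percentile of 7.69, which was taken as the dim level. A gene was counted above it when its mean passed 7.69 and each array passed that array's own 95th percentile, 7.60, 7.80 and 7.71 on replicates 1, 2 and 3. In total 7884 genes (55.4%) were above the dim level, among them 10 of the 259 reference genes. That share is the one to set beside each list count below. The brightest reference gene, KRTAP5-1, had a mean of 9.89, so a signal between 7.69 and 9.89 alone does not establish expression. Signals of different clusters also depend on how well their probes bind, so ranks order signals, not molecules: of 197 symbols with more than 1 cluster, 106 had clusters whose means differed by over 1 on the log2 scale. Only the brighter cluster of a gene was ranked. The brighter and dimmer means were 9.89 and 6.55 for KRTAP5-1, 12.70 and 10.19 for CD22, and 12.85 and 8.94 for RPS25.

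Each of the 3 arrays ranked the genes in much the same order, but replicate 2 lay farther from the others. Across genes, which are not independent replicates, Pearson's r was 0.996 between replicates 1 and 3, 0.988 between 2 and 3, and 0.983 between 1 and 2. Replicate 2 had the narrowest distribution, with an upper quartile over all clusters of 9.28 against 9.54 on replicate 1 and 9.49 on replicate 3. The median SD of a gene was 0.13 over the 3 arrays. Over 2 arrays it was 0.063 for replicates 1 and 3, 0.105 for 2 and 3, and 0.15 for 1 and 2. Values below are given in the order of replicates 1, 2 and 3, and errors are SDs with n = 3. No test between groups was made, because the 3 arrays form a single group, and their small number limits the precision of every SD.

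**Figure D1:**
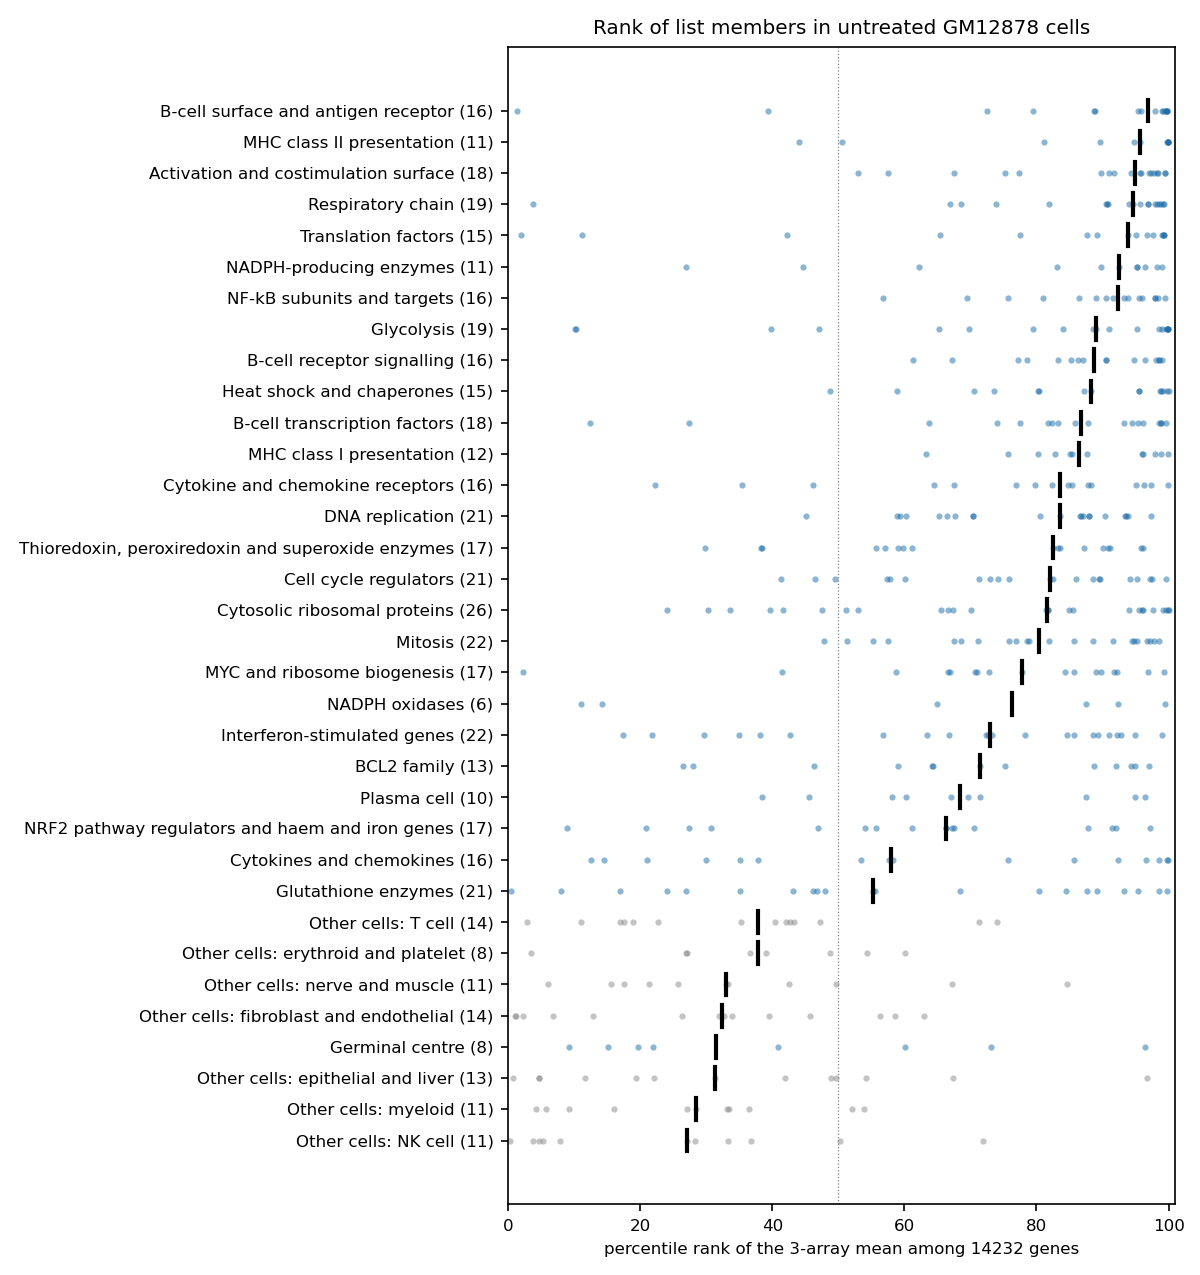
Percentile rank of the 3-array mean (x axis, among 14232 genes) for every measured member of 34 gene lists; points are genes, black bars are list medians, and the number of measured members is in brackets. Lists of markers of other cell types are grey and have medians from 27 to 37.8, and the list of B-cell surface genes is highest at 96.9.

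The brightest gene was HSPA8, the constitutive HSP70 chaperone, at 14.48, 14.51 and 14.50. It was followed by RPL8, a protein of the large ribosomal subunit, at 14.31, 14.30 and 14.29, LDHA, which reduces pyruvate to lactate, at 14.15, 14.27 and 14.32, and PA2G4, a growth-associated protein of ribosome assembly, at 14.16, 14.26 and 14.30. The order past the first place was mostly not resolved: of the 29 steps between neighbours in the 30 brightest genes, 3 were larger than the larger of both SDs, and 1, from HSPA8 to RPL8, had arrays that did not overlap. The 30 brightest genes had means from 13.17 to 14.49, with FCER2 at place 30 and the histone H2AC16 just outside at 13.17 ± 0.06, and 22 of the 30 were in the 30 brightest on each array.

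Several kinds of gene made up these 30. Immune genes were HLA-DRA, HLA-DPB1, HLA-DPA1 and CD74 of antigen presentation, the chemokine CCL22, the chemokine receptor CCR7 and the Fc receptor FCER2. LAPTM5, a lysosomal protein of blood cells, lay at 13.68, 13.49 and 13.76, and SRGN, the proteoglycan of secretory granules, at 13.32, 13.25 and 13.18. Actin and its partners were ACTG1 (13.83 ± 0.17), ACTB (13.78 ± 0.25), the filament bundler LCP1 (13.70 ± 0.053), the severing factor CFL1 (13.37 ± 0.12), TAGLN2 (13.54 ± 0.13) and ARPC2 of the Arp2/3 complex (13.27 ± 0.21). LDHA, PGK1 and ENO1 were the glycolytic enzymes among them. ND5, a mitochondrial subunit of complex I, lay at 13.73 ± 0.10, the polyamine regulator OAZ1 at 13.30 ± 0.12, ANXA6, a calcium-dependent membrane binder, at 13.29 ± 0.15, and DAD1, of protein glycosylation, at 13.18 ± 0.075. Linker histone H1-4 (14.03, 13.89 and 14.06) and the core histones H2BC14 (12.98, 13.60 and 13.36) and H2BC7 (13.19, 13.23 and 13.36) were there too. H2BC14 had the largest SD of the 30, 0.31, with replicate 1 low, whereas HSPA8 had the smallest, 0.014.

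Surface genes of B cells, the cell type the labels name, were mostly bright. Of 16 measured genes of the B-cell surface and antigen receptor, 14 were above the dim level, 13 were in the top 25% of all genes and 6 in the top 1%, with a median percentile of 96.9; over all genes 55.4% were above the dim level. FCER2, or CD23, the low-affinity IgE receptor that is a known mark of virus-transformed lymphoblasts, read 13.15, 13.24 and 13.13. CD53, a tetraspanin of leukocytes, read 13.24, 12.93 and 13.27, with replicate 2 lowest. MS4A1, or CD20, read 12.91, 13.11 and 13.11, and CD79A, a signalling chain of the antigen receptor, 12.82, 12.80 and 12.90. CD22, an inhibitory lectin of B cells, read 12.72, 12.73 and 12.64. In these 5 genes the 3 arrays lay within 0.34 of each other.

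CR2, the complement receptor through which Epstein-Barr virus enters B cells, lay at 11.96, 11.30 and 11.88; replicate 2 was the low array and the SD was 0.36. TNFRSF13C, the receptor for the survival factor BAFF, lay at 11.04 ± 0.067, CD79B at 10.28 ± 0.031 and CD40 at 10.27 ± 0.087. The lowest members were CD38, an ectoenzyme of activated and plasma cells (9.24 ± 0.26), CD72 (7.64 ± 0.026, not above the dim level) and CD24, a surface glycoprotein of early B cells, at 3.94, 4.01 and 4.10, percentile 1.28. The CD24 signal was therefore among the dimmest on every array, and the part of its probes was not tested.

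All 18 B-cell transcription factors were measured, 16 were above the dim level and 14 in the top 25%, with a median percentile of 86.8. IRF4, which drives activated B cells toward the plasma cell state, was highest at 12.90, 12.72 and 12.91. RUNX3 read 12.14, 12.09 and 12.25, MEF2C 12.30, 11.86 and 12.30 and IRF8 12.03, 12.04 and 11.91. PAX5, the keeper of B-cell commitment, read 10.97, 11.12 and 10.99 (percentile 95.3), and EBF1, its partner in early specification, 10.29, 9.90 and 10.38 (percentile 87.7). POU2AF1, the B-cell coactivator of octamer factors, read 10.70, 10.79 and 10.71. At the other end were BACH2, a repressor that holds back plasma cell differentiation, at 7.05 ± 0.092, and BCL6, the master repressor of the germinal centre, at 5.91 ± 0.084. Neither was above the dim level on any array, while the lowest of the other factors, BCL11A, lay at 8.80 ± 0.22.

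The germinal centre list was low beside the other B-cell lists. Of its 8 measured members 3 were above the dim level, against 55.4% of all genes, and the median percentile was 31.4. GCSAM, an adaptor of germinal centre B cells, stood alone in the top 25% at 11.46, 10.91 and 11.42. The sphingosine receptor S1PR2 lay at 9.28 ± 0.14 and LMO2 at 8.62 ± 0.15. MME, or CD10, lay at 5.57 ± 0.034, RGS13 at 6.16 ± 0.083, and SUGCT at 6.53 ± 0; the 3 arrays of SUGCT shared a single value. Such equal values occurred in 127 genes with all 3 arrays and in 1119 with a pair of arrays, and an SD of 0 there is not a measure of precision.

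Plasma cell genes spread more widely. Of 10 measured, 9 were above the dim level and 3 in the top 25%, with a median percentile of 68.4. JCHAIN, which joins secreted IgM and IgA, read 11.40, 10.98 and 11.44, and XBP1, the factor of the secretory expansion, 11.03, 10.93 and 10.93. PRDM1, or BLIMP1, read 9.12, 8.66 and 9.12 (percentile 67.1), TNFRSF17, the receptor BCMA, 8.86, 8.39 and 8.63, and SDC1, the plasma cell surface marker CD138, 7.90, 7.96 and 7.91 (percentile 45.5). IRF4 and XBP1 were thus in the top 5.12% of genes while SDC1 lay below the median gene. IGHM, IGHG1 and IGKC, without a single-symbol cluster, were not analysed here.

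Every one of 16 measured genes of antigen receptor signalling was above the dim level, and 14 were in the top 25% (median percentile 88.7). The phosphatase PTPN6, which dampens the receptor, was highest at 12.36, 12.24 and 12.34. LYN, the Src-family kinase that starts the signal, read 12.19, 11.68 and 12.21, PRKCB 12.01, 11.99 and 11.90 and PLCG2, the phospholipase that releases calcium, 11.89, 11.73 and 11.73. BTK lay at 10.07 ± 0.19, SYK at 9.88 ± 0.097 and the adaptor BLNK at 10.94 ± 0.011. BLK, BANK1 and BCL10 were among the lowest, at 9.49 ± 0.067, 8.97 ± 0.49 and 8.67 ± 0.20, and BANK1 varied most, reading 9.30, 8.41 and 9.21 with replicate 2 low.

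MHC class II genes were among the brightest of the array. Of 11 measured, 10 were above the dim level, 9 in the top 25% and 5 in the top 1%, and the median percentile was 95.7. HLA-DRA, the alpha chain of HLA-DR, read 13.70, 13.39 and 13.73; HLA-DPB1 read 13.68, 13.42 and 13.70 and HLA-DPA1 13.65, 13.32 and 13.60. CD74, the invariant chain that guides class II through the cell, read 13.46, 13.35 and 13.59. In all 4 genes replicate 2 was the lowest array. IFI30, a lysosomal thiol reductase for antigens, read 12.99, 13.10 and 12.97, with replicate 2 highest.

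The regulators of class II lay lower. CIITA, the coactivator that switches the class II genes on, read 10.97, 10.96 and 10.90 (percentile 94.7), and RFX5, of the factor that binds their promoters, read 10.05, 9.26 and 9.89. Its partner RFXAP read 7.91, 7.85 and 7.84. HLA-DMB, of the peptide exchange factor, lay at 11.10 ± 0.33 and HLA-DOA, of its inhibitor, at 10.35 ± 0.27. CTSS, the protease that trims the invariant chain, read 8.42, 7.72 and 8.35: its mean was over the dim level, but replicate 2 fell short of that array's 7.80. HLA-DRB1, HLA-DQA1, HLA-DQB1 and 3 other listed genes had no cluster of their own.

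Class II promoters are known to hold a module whose Y box is a CCAAT element. The letters CCAAT, on either strand, were searched in the 250 bases before each start in RefSeq promoters (GRCh38.p14), and 33.0% of all 27305 promoters held them. Of the 8 class II list genes with a promoter in the table, 6 did, RFX5 and IFI30 among them. So did 37.9% of the highest 20% of genes by level. Of the 24 genes with a promoter among the 30 brightest, 14 held the letters. The stretches printed here show these letters in capitals (ATTGG is CCAAT on the other strand), each with 20 bases on both sides where the window allows, for 4 of the 6, whose means run from 10.35 to 13.60. A match is a description of the letters and not a bound site. The HLA-DPB1 stretch lies at chr6:33075871-33075939 (plus strand), that of CD74 at chr5:150412939-150412983 (minus strand), that of HLA-DMB at chr6:32941029-32941070 (minus strand) and that of HLA-DOA at chr6:33009634-33009678 (minus strand).
HLA-DPB1: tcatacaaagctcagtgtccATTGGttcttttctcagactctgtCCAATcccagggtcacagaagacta
CD74: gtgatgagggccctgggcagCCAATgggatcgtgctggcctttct
HLA-DMB: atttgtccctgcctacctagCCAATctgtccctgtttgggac
HLA-DOA: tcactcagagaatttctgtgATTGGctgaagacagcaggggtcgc

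All 12 measured genes of MHC class I presentation were above the dim level and 11 were in the top 25% (median percentile 86.5). CALR, a chaperone of the loading complex, read 13.47, 13.49 and 13.45, TAPBP, or tapasin, 12.27, 12.10 and 12.36, and B2M, the light chain of every class I molecule, 11.82, 11.75 and 11.64. TAP1 and TAP2, the peptide pump, lay at 11.19 ± 0.19 and 10.18 ± 0.27, HLA-E at 11.14 ± 0.15, and HLA-F at 10.01 ± 0.23. ERAP1, which trims peptides, read 10.09, 9.38 and 10.07, and ERAP2 read 10.27, 9.56 and 10.15, each with replicate 2 low. PSMB8, a subunit of the immunoproteasome, was lowest at 8.78 ± 0.12.

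**Figure D2:**
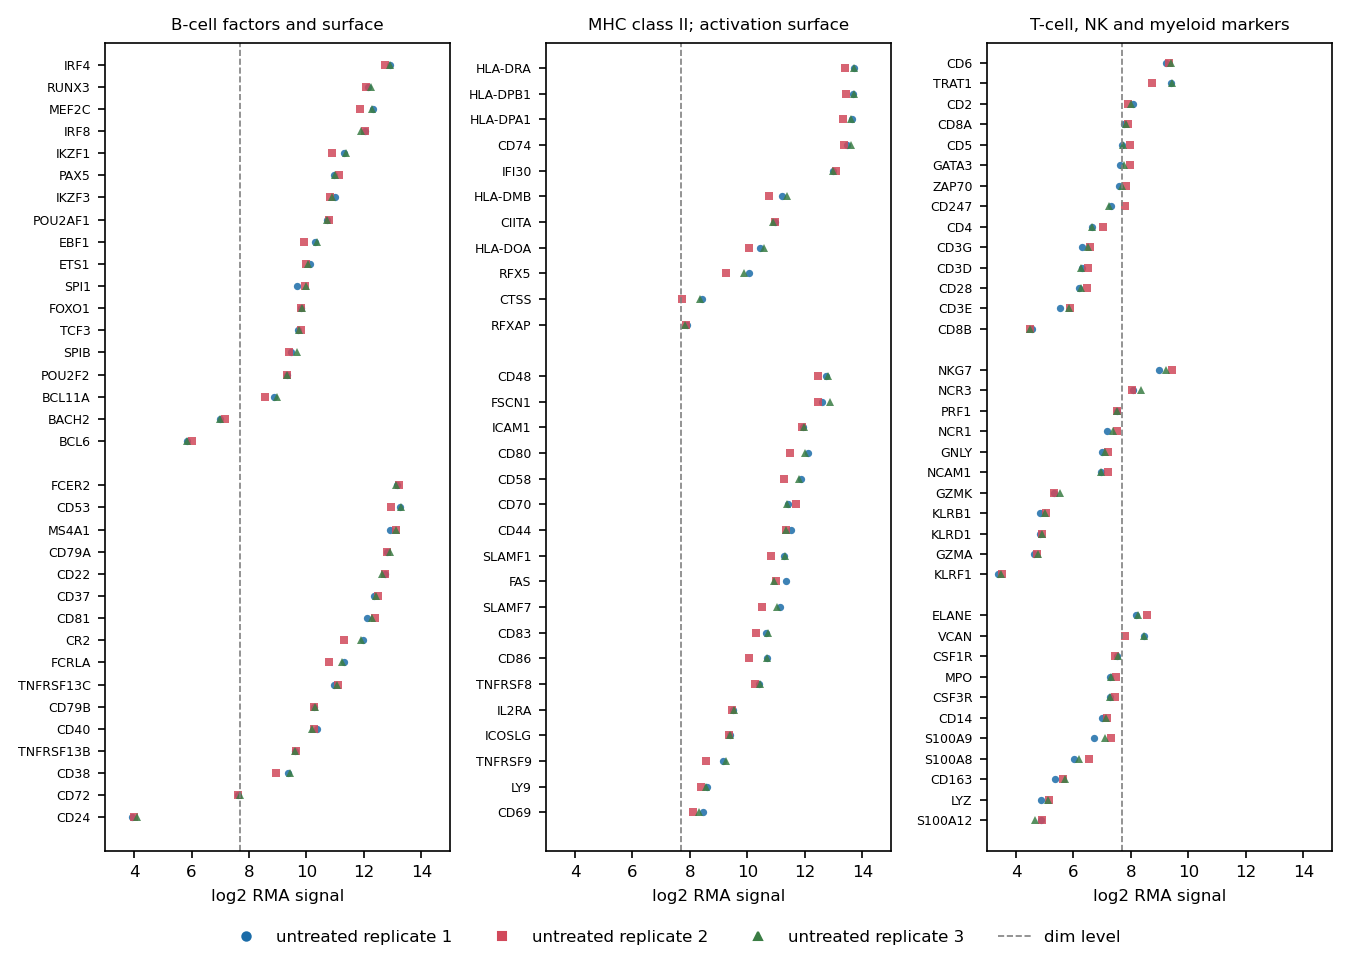
Log2 RMA signal (x axis) of every measured member of 7 lists on each of the 3 untreated arrays; colour and shape give the replicate, gaps separate lists, and the dashed line is the dim level of 7.69. FCER2 and HLA-DRA lie above 13, BCL6 lies left of the line, and CD3E, CD14 and LYZ lie left of the line on every array.

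Costimulatory and activation molecules were high as a group. All 18 measured members were above the dim level and 15 were in the top 25%, with a median percentile of 95. CD48 read 12.72, 12.45 and 12.80, the actin bundler FSCN1, a known induced gene of virus-transformed B cells, 12.61, 12.47 and 12.88, and the adhesion receptor ICAM1 11.95, 11.91 and 11.97. CD80, a ligand of CD28, read 12.12, 11.50 and 11.99, and its relative CD86 10.68, 10.05 and 10.68. CD58, the ligand of CD2, read 11.85, 11.27 and 11.78, and CD70, the ligand of CD27, 11.40, 11.69 and 11.37. Replicate 2 was lowest in CD48, FSCN1, ICAM1, CD80, CD86 and CD58 and highest in CD70.

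FAS, the death receptor, lay at 11.09 ± 0.22, SLAMF1 at 11.13 ± 0.28, CD83 at 10.55 ± 0.22 and TNFRSF8, or CD30, at 10.37 ± 0.09. The interleukin-2 receptor chain IL2RA lay at 9.50 ± 0.047. TNFRSF9, or 4-1BB, LY9 and the early activation marker CD69 were lowest, with means of 8.98 ± 0.37, 8.51 ± 0.12 and 8.29 ± 0.18. CD69 stood at percentile 53, near the median gene.

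NF-kB components and targets lay close behind. All 16 measured were above the dim level and 14 were in the top 25% (median percentile 92.4). NFKBIA, the inhibitor that NF-kB itself induces, was highest and hardly varied, at 12.76, 12.75 and 12.78. The deubiquitinase TNFAIP3, or A20, another feedback inhibitor, read 12.12, 11.56 and 12.11, IER3 11.65, 11.66 and 11.85, and TRAF1, an adaptor used by the viral protein LMP1, 11.81, 11.66 and 11.60. Among the subunits, NFKB2 read 11.13, 11.13 and 11.17, REL 11.42, 10.49 and 11.25, NFKB1 11.08, 10.37 and 10.97, RELA 10.64, 10.76 and 10.80 and RELB 9.06, 9.14 and 9.08. REL and NFKB1 were lower on replicate 2 than on either other array by at least 0.61, whereas RELA and RELB were lowest on replicate 1.

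The kB motif was searched as GGG, any 2 bases and TTTCC, on both strands; on the opposite strand it opens with the letters GGAAA. The NF-kB list was chosen to include targets of NF-kB, so its share of promoters with the motif is a description only. Of all 27305 promoters 1.73% held the kB motif in the 250 bases before the start, and of 12 NF-kB list genes with a promoter 5 did. Those 5 are shown with the motif in capitals, since they include the brightest feedback inhibitors of the list. They lie at chr14:35404801-35404850 (minus strand) for NFKBIA, chr6:137867172-137867233 (plus strand) for TNFAIP3 and chr2:60881508-60881557 (plus strand) for REL. Those of NFKB1 and TRAF3 lie at chr4:102501290-102501339 (plus strand) and chr14:102777396-102777445 (plus strand), TRAF3 encoding an adaptor with a mean of 10.08 ± 0.17.
NFKBIA: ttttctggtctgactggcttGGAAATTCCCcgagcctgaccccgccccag
TNFAIP3: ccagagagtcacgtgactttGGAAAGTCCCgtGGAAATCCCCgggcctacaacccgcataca
REL: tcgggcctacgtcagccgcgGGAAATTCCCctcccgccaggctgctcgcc
NFKB1: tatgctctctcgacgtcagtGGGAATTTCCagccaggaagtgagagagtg
TRAF3: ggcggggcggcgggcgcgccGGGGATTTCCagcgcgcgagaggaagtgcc

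Secreted factors ranged from the 30 brightest genes to well below the dim level. Of 16 measured cytokines and chemokines 10 were above the dim level, against 55.4% of all genes, and 7 in the top 25% (median percentile 58). CCL22, a chemokine for CCR4-bearing T cells, read 13.37, 13.48 and 13.44, and EBI3, a cytokine subunit found as a gene induced by the virus, 12.98, 13.10 and 12.98. LTA, or lymphotoxin alpha, read 12.12, 11.72 and 12.19, CCL5 11.10, 11.39 and 11.38 and TNF 10.61, 10.50 and 10.75. CCL17, which shares its receptor with CCL22, read 7.44, 7.63 and 7.65 and was not above the dim level. IL10, a known growth factor of these cells, read 6.67, 6.61 and 6.64 (percentile 21), and IL6 5.66, 6.21 and 5.90 (percentile 12.6). CCL20 and CXCL10 varied most: CCL20 read 9.59, 8.88 and 9.76 and CXCL10 read 8.81, 7.98 and 8.75, with replicate 2 low in both.

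CCR7, the receptor that brings lymphocytes into lymph nodes, was the brightest of 16 measured receptors and integrins at 13.33, 13.38 and 13.17. In that list 13 were above the dim level and 11 in the top 25% (median percentile 83.6). The integrin chains ITGB7 and ITGAL lay at 11.51 ± 0.022 and 11.23 ± 0.053. CXCR4 read 10.17, 9.51 and 10.27. CXCR5, the receptor for B-cell follicles, read 6.76, 6.71 and 6.74 (percentile 22.2), and CCR6 7.72, 7.05 and 7.58. Neither was above the dim level. IL7R read 8.23, 7.50 and 8.13 (7.95 ± 0.40) and missed the dim level only on replicate 2. CCR7 was thus above, and CXCR5 below, the dim level of each array.

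Interferon-stimulated genes were mixed: 16 of 22 were above the dim level, against 55.4% of all genes. In the top 25% were 10, and the median percentile was 73. IFITM1, a membrane factor that restricts virus entry, read 12.28, 12.26 and 12.28, and OAS2 11.08, 10.90 and 10.93. MX1 lay at 10.25 ± 0.064, IFI44L at 10.47 ± 0.44 and ISG15 at 8.95 ± 0.22. The 6 genes not above the dim level included IFIT1, IFI44 and RSAD2, at 6.69 ± 0.14, 7.43 ± 0.58 and 6.35 ± 0.08.

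Markers of other blood cells and tissues were mostly dim. Over 7 lists and 82 measured genes, 25 (30.5%) were above the dim level, against 55.4% of all genes, and 2 (2.44%) were in the top 25%. Of the T-cell receptor chains, CD3E read 5.54, 5.90 and 5.84, CD3D read 6.30, 6.50 and 6.28 and CD3G read 6.30, 6.57 and 6.52, and CD4 and CD8B had means of 6.77 ± 0.22 and 4.50 ± 0.032. The brightest T-cell list members were CD6, an adhesion receptor, at 9.23, 9.34 and 9.41, and TRAT1, an adaptor of the T-cell receptor, at 9.39, 8.73 and 9.43. Of 14 T-cell genes 6 were above the dim level.

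Of 11 NK genes 2 passed, NKG7 at 8.98, 9.43 and 9.21 and NCR3 at 8.08, 8.03 and 8.34, while the receptors KLRD1 and KLRF1 had means of 4.88 ± 0.049 and 3.46 ± 0.068. Of 11 myeloid genes 2 passed, ELANE at 8.33 ± 0.21 and VCAN at 8.24 ± 0.38; the monocyte marker CD14 read 7.01, 7.16 and 7.14 and lysozyme, LYZ, 4.86, 5.16 and 5.11. Haemoglobin beta, HBB, lay at 7.03 ± 0.15, and 3 of 8 erythroid and platelet genes passed, the highest being GP9 at 8.62 ± 0.092. Of 14 fibroblast and endothelial genes 3 passed, PECAM1, CLDN5 and COL1A1, with means from 8.44 to 8.76. The fibroblast genes DCN, LUM and FAP had means of 4.38, 4.01 and 3.89.

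KRT8 and MBP were the 2 genes of these lists in the top 25%. KRT8, a keratin of simple epithelia, read 11.32, 11.36 and 11.35 (percentile 96.8), while its partner KRT18 read 7.47, 8.16 and 7.67 and the epithelial marker EPCAM 3.75, 3.80 and 3.80. MBP, named for myelin but also transcribed in blood cells, read 10.08, 9.80 and 10.03. These are values of the brighter of its 2 clusters, and the dimmer had a mean of 7.38, below the dim level. Of 13 epithelial and liver genes 5 passed and of 11 nerve and muscle genes 4. Albumin, ALB, lay at 4.90 ± 0.046, and the synaptic genes SYT1 and SNAP25 at 5.09 ± 0.17 and 6.37 ± 0.013.

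Genes of cell division were mostly above the dim level. Of 64 measured cell cycle, replication and mitosis genes, 59 were above the dim level and 39 in the top 25% (median percentile 81.9). Among 21 regulators 20 were above the dim level (median percentile 82). CCND2, the D-type cyclin that the virus is known to induce, was highest at 13.01, 12.87 and 12.83. CCND3 read 10.28, 10.31 and 10.49 and CCND1, which B cells are not known to use, 8.43, 8.81 and 8.64. MYBL2, a factor of cycling cells, read 11.53, 11.52 and 11.52, CDK6 11.26, 10.61 and 11.17, CCNA2 11.02, 10.54 and 11.02 and FOXM1 10.07, 10.10 and 10.01.

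Inhibitors of the cycle ranged widely in rank. CDKN1A, or p21, read 11.40, 11.31 and 11.60 (percentile 97.1), CDKN1B, or p27, 9.29, 9.00 and 9.27 (percentile 71.3) and the CDKN2A locus 8.43, 8.60 and 8.54 (percentile 57.9). CDKN2D, an inhibitor of CDK4 and CDK6, read 7.72, 8.29 and 7.90 (percentile 46.5), below the median gene. The retinoblastoma gene RB1 read 10.40, 10.19 and 10.17. The E2F factors were lower in rank, with E2F1 at 9.42 ± 0.14, E2F2 at 8.11 ± 0.11 and E2F3 at 7.74 ± 0.39, the last not above the dim level because of replicate 2.

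Replication genes were nearly all above the dim level. Of 21 measured, 20 were above the dim level and 12 in the top 25% (median percentile 83.5), with means from 7.91 for RPA2 to 11.48 for TYMS, the thymidylate synthase. GINS2 of the helicase read 10.94, 10.76 and 10.75, and the helicase subunit MCM5 read 10.78, 10.68 and 10.87. MCM3 read 10.96, 10.34 and 10.99 and MCM4 read 10.50, 10.14 and 10.62. MCM2 lay at 10.14 ± 0.19 and MCM6 at 9.00 ± 0.33. RRM2, the limiting subunit of ribonucleotide reductase, read 10.39, 9.93 and 10.30. CDC6, which loads the helicase, read 9.39, 8.96 and 9.05. In these 5 MCM genes and in RRM2 replicate 2 was the lowest array.

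Mitotic genes were similar in count. Of 22 measured, 19 were above the dim level and 15 in the top 25% (median percentile 80.3). CDC20, the activator of the anaphase-promoting complex, read 12.06, 11.73 and 12.14, and the kinase PLK1 11.73, 11.70 and 11.54. MKI67, the proliferation marker Ki-67, read 11.60, 11.45 and 11.35 (percentile 97.2), AURKB 11.23, 11.41 and 11.36, TOP2A 11.24, 10.93 and 10.88 and TPX2 11.04, 10.90 and 10.88. The 3 genes not above the dim level were CENPE, which read 8.88, 7.75 and 8.54, MAD2L1, which read 8.26, 7.79 and 8.56, and TTK, which read 8.45, 7.42 and 8.22. Each of these had a mean over 8 and missed only on replicate 2.

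**Figure D3:**
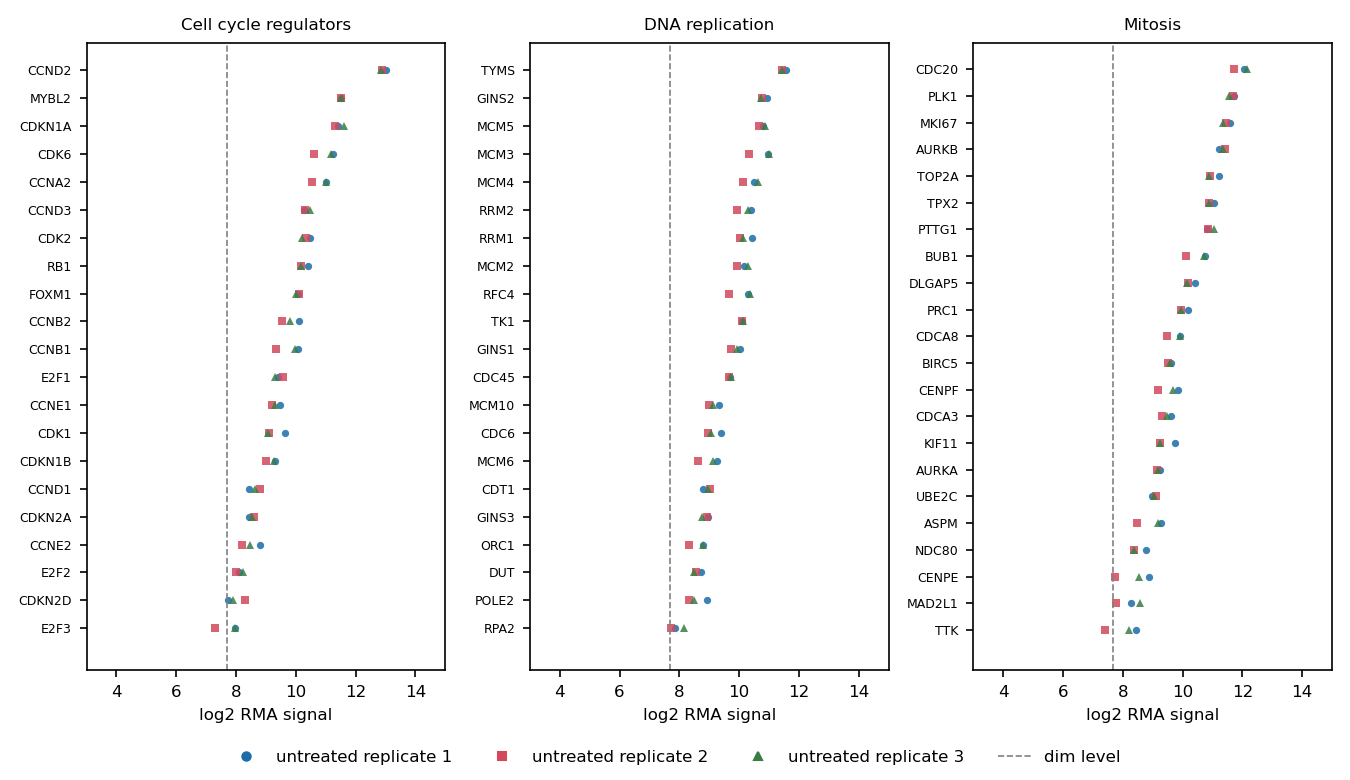
Log2 RMA signal (x axis) of the measured cell cycle regulators, replication genes and mitosis genes on each of the 3 untreated arrays; colour and shape give the replicate and the dashed line is the dim level of 7.69. CCND2 is highest near 13, and CENPE, TTK and MAD2L1 have replicate 2 farthest left.

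CCAAT elements are a known feature of promoters of mitotic genes. Of 17 mitosis genes with a promoter in the table, 15 held CCAAT on either strand in the 250 bases before the start, as did 10 of 18 replication genes and 8 of 16 regulators, against 33.0% of all promoters. The sequences, with these letters in capitals, are of 4 of the 5 brightest mitosis genes. CDC20 is read at chr1:43358861-43358950 (plus strand), PLK1 at chr16:23678796-23678840 (plus strand), AURKB at chr17:8210354-8210398 (minus strand) and TOP2A at chr17:40417925-40418146 (minus strand). TOP2A held 4 copies and CDC20 2.
CDC20: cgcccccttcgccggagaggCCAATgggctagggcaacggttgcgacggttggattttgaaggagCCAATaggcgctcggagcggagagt
PLK1: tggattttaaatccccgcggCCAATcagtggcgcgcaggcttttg
AURKB: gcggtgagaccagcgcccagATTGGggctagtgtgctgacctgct
TOP2A: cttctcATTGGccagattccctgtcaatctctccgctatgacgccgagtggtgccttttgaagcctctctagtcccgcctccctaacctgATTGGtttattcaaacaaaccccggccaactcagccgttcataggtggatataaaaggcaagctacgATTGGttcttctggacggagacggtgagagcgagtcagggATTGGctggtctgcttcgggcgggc

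Growth beyond the cycle was described by the RNA signals of MYC and genes of ribosome production, and growth itself was not measured. MYC, which the virus is known to keep active, read 11.45, 11.15 and 11.55 (percentile 96.9), and its partner MAX 9.17, 9.17 and 9.17. Of 17 measured genes of this list 15 were above the dim level and 9 in the top 25% (median percentile 77.8). FBL, the methyltransferase fibrillarin, read 12.57, 12.65 and 12.56, the helicase DDX21 10.81, 10.52 and 10.53 and NOP2 10.59, 10.53 and 10.53. NPM1, or nucleophosmin, a major nucleolar protein, read 4.65, 4.11 and 4.34 (percentile 2.22), far below the rest of the list; whether its probes account for this was not tested.

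Ribosomal protein genes encode parts of the same particle, yet the means of the 26 that were measured ran from 6.86 for RPS29 to 14.30 for RPL8, and 6 were not above the dim level. Whether each of these clusters lies at the gene it names was not checked. The low values therefore do not establish low expression of these ribosomal protein genes. RPL18 read 14.07, 14.05 and 14.18, RPS25 12.93, 12.81 and 12.81 and RPS6 12.36, 12.62 and 12.39, whereas RPS19 read 7.12, 7.39 and 7.08 and RPL41 7.59, 7.30 and 7.21. The other 51 listed ribosomal proteins had no cluster of their own. Of 15 translation factors 13 were above the dim level and 11 in the top 25% (median percentile 93.9), with EIF3I at 12.61 ± 0.17, EIF3H at 12.60 ± 0.075 and EIF2S3 at 12.47 ± 0.03; EIF4E, the cap-binding protein, read 6.31, 5.09 and 5.91 and EIF2S2 4.08, 5.03 and 3.72, neither above the dim level; the part of their probes was not tested.

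Chaperones were all above the dim level, 15 of 15, with a median percentile of 88.3. Beside HSPA8, the small chaperone HSPB1 read 13.07, 13.02 and 13.23, HSPA5 of the endoplasmic reticulum 12.58, 12.45 and 12.41 and HSP90AA1 12.19, 12.12 and 12.16. BAG3, a co-chaperone of stressed cells, was lower at 8.57 ± 0.05, and HSPE1, the mitochondrial co-chaperonin, was lowest at 8.07 ± 0.18.

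Energy metabolism gave some of the brightest signals. Of 19 measured glycolytic genes 16 were above the dim level, 13 in the top 25% and 6 in the top 1% (median percentile 89). After LDHA came PGK1 at 13.88, 13.87 and 13.72, ENO1 at 13.46, 13.35 and 13.53, PKM at 12.91, 13.00 and 13.05, LDHB at 13.14, 12.93 and 12.80 and ALDOA at 12.25, 12.36 and 12.33. SLC2A1, the glucose transporter GLUT1, read 11.04, 10.79 and 11.18, and the hexokinases HK1 and HK2, the first enzymes of the path, lay at 9.10 ± 0.031 and 8.88 ± 0.19. Forms known from particular tissues differed: the liver pyruvate kinase PKLR lay at 7.66 ± 0.05 and the testis lactate dehydrogenase LDHC at 5.67 ± 0.068, neither above the dim level. Brain aldolase ALDOC (10.30 ± 0.073), muscle phosphofructokinase PFKM (9.93 ± 0.12) and neuronal enolase ENO2 (9.63 ± 0.071) were above it and in the top 25%. TPI1, an enzyme needed by every glycolytic cell, read 5.57, 5.61 and 5.85 (percentile 10.2), and the part of its probes was not tested.

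Respiratory chain genes were high too. Of 19 measured 18 were above the dim level and 15 in the top 25% (median percentile 94.6). UQCRC2 of complex III read 12.67, 12.63 and 12.45 and COX5A of complex IV 12.20, 12.81 and 12.43, with replicate 2 highest. SDHA of complex II read 11.83, 11.37 and 11.99. SDHC, its membrane anchor, read 9.63, 8.10 and 9.40 and had the largest SD, 0.82, of any gene above the dim level. SDHD, the other anchor, read 4.96, 4.24 and 4.89, and the part of its probes was not tested.

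Redox genes spanned a wide range. Of 49 measured glutathione, thioredoxin and NADPH genes, 37 were above the dim level and 25 in the top 25% (median percentile 80.4). Glutathione enzymes had a median percentile of 55.3, with 14 of 21 above the dim level, against 55.4% of all genes. GSTP1, the pi-class transferase, was brightest at 12.99, 13.23 and 12.99. GPX4, which reduces lipid peroxides, read 11.90, 12.13 and 12.02, GSTK1 11.09, 10.79 and 11.25 and the microsomal transferase MGST3 10.87, 10.30 and 11.02. GPX1, the cytosolic peroxidase, read 8.37, 8.26 and 8.55, and GPX2, GSTM3 and GPX8 were dim at 6.31 ± 0.13, 5.43 ± 0.12 and 3.51 ± 0.10.

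Enzymes of glutathione supply lay unevenly. GSS, the second enzyme of synthesis, read 10.24, 10.07 and 10.23 and GSR, which reduces oxidised glutathione, 10.14, 9.97 and 9.76. GCLC, the catalytic subunit of the limiting enzyme, read 8.22, 7.58 and 8.08. Its mean was over the dim level, but replicate 2 fell short of that array's 7.80. The modifier GCLM read 7.28, 6.09 and 7.19, below the dim level of each array. SLC7A11, the cystine importer, read 8.70, 7.83 and 8.68, and its heavy chain SLC3A2, which also serves other amino acid transporters, 10.31, 10.36 and 10.29. GCLC, GCLM and SLC7A11 were all lowest on replicate 2, by at least 0.50; their means over replicates 1 and 3 alone were 8.15, 7.23 and 8.69.

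Peroxiredoxins and their partners had a higher median rank than the glutathione enzymes. Of 17 measured genes of this group 14 were above the dim level and 9 in the top 25% (median percentile 82.5). PRDX6 read 11.39, 10.71 and 11.49, PRDX1 11.25, 10.85 and 11.28 and the mitochondrial PRDX3 10.55, 10.22 and 10.39. PRDX2, of the cytosol, lay at 8.48 ± 0.052 (percentile 57) and PRDX4, of the endoplasmic reticulum, at 7.60 ± 0.04 (percentile 38.5), PRDX4 not above the dim level. SOD1, the cytosolic superoxide dismutase, read 10.03, 9.69 and 9.97, and catalase, CAT, 9.94, 9.82 and 9.86. TXNRD1, which reduces thioredoxin, read 8.84, 8.54 and 8.62 (percentile 61.1), and SRXN1, which restores overoxidised peroxiredoxins, 8.47, 8.79 and 8.57 (percentile 59.8). TXNIP, the inhibitor of thioredoxin, read 9.92, 9.49 and 10.04. The secreted SOD3 lay at 7.18 ± 0.16, below the dim level.

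The list of NADPH-related enzymes had a median percentile of 92.5, and 9 of 11 were above the dim level. Its members are not all known to make NADPH, with TKT and ME2 among the exceptions. PGD of the pentose phosphate path read 12.39, 12.05 and 12.43, MTHFD2 of mitochondrial folate metabolism 11.95, 11.62 and 11.98, IDH2 11.27, 11.21 and 11.31 and TKT 11.03, 10.78 and 11.21. ME2, the mitochondrial malic enzyme, read 11.07, 11.01 and 10.97. ME1, its cytosolic relative, read 8.44, 7.12 and 8.12, with replicate 2 more than 1 below replicate 1. ME1 missed the dim level only on replicate 2. ME3 read 6.95, 7.16 and 6.99, below the dim level of each array.

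The regulators of NRF2 and its haem and iron targets lay near the middle. Of 17 measured 13 were above the dim level, against 55.4% of all genes, and 4 in the top 25% (median percentile 66.4). The 4 were TFRC, the transferrin receptor, at 11.74, 11.04 and 11.63, NFE2L1, a relative of NRF2, at 10.64, 10.56 and 10.60, CUL3, the ligase scaffold that KEAP1 uses, at 10.79, 10.08 and 10.73, and HMOX2, the constitutive haem oxygenase, at 10.23, 10.24 and 10.10. KEAP1 read 9.23, 8.98 and 9.23 (percentile 70.5), and BACH1, the haem-sensing repressor, 9.06, 8.80 and 8.94. HMOX1, the inducible haem oxygenase, read 8.77, 8.99 and 9.03 (percentile 66.4), and FTL, the ferritin light chain, 8.41, 8.30 and 8.54 (percentile 55.7). What part probes play in the FTL signal was not tested. PIR read 6.74, 6.49 and 6.65 and SLC40A1, the iron exporter, 5.51, 5.54 and 5.54, both below the dim level. NFE2L2, NQO1 and FTH1, for want of such a cluster, were not analysed here.

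Sources of superoxide were represented by the phagocyte oxidase, which B cells also carry. RAC2, its small GTPase, read 12.66, 12.89 and 12.81, CYBB, the catalytic gp91 subunit, 10.71, 10.51 and 10.65, NCF4 10.27, 10.06 and 10.18 and CYBA 8.79, 8.98 and 8.82. The non-phagocyte catalytic subunits NOX3 and NOX4 lay at 6.09 ± 0.12 and 5.76 ± 0.19, below the dim level. The list held 6 measured genes, 4 of them above it.

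**Figure D4:**
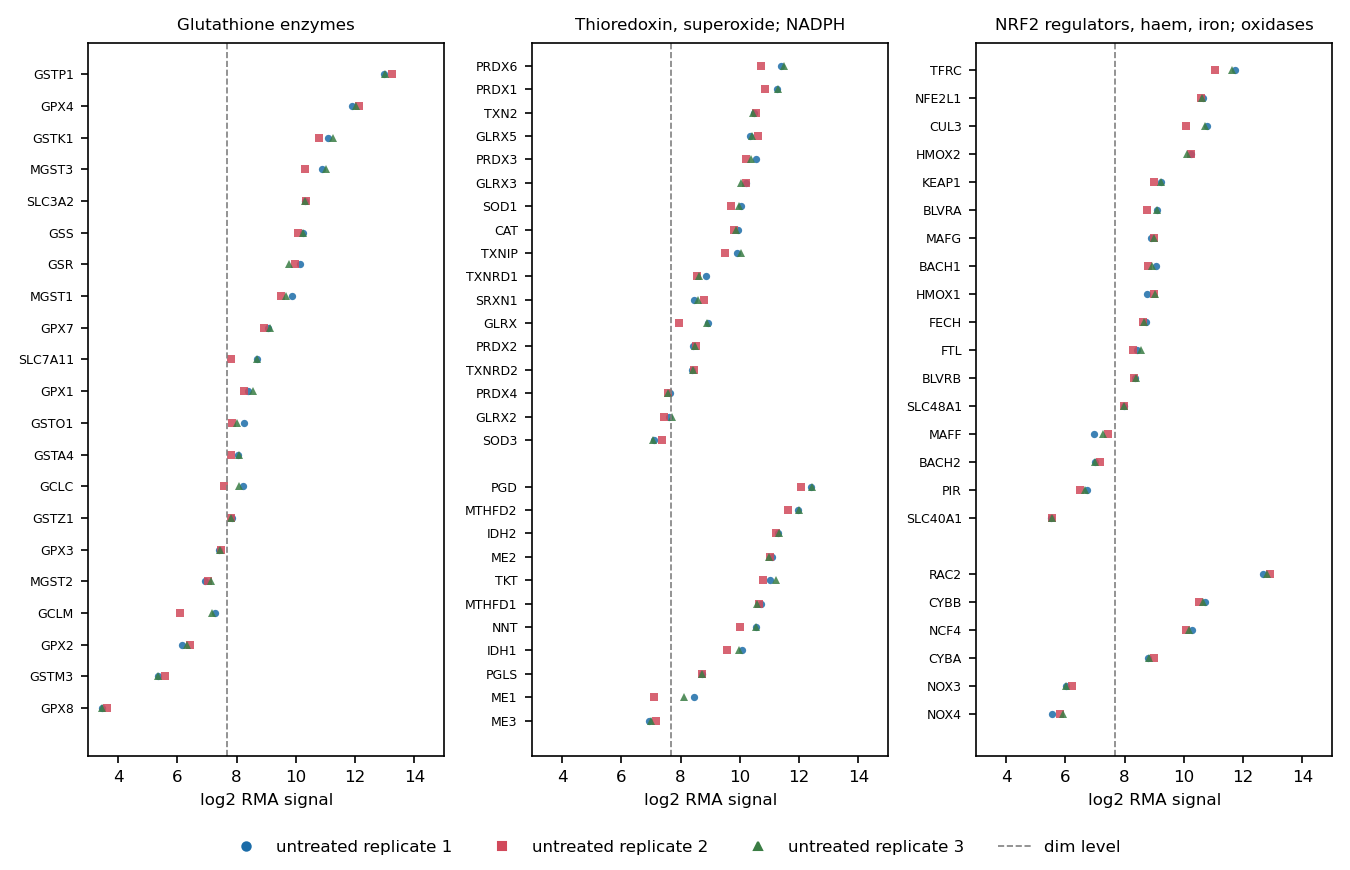
Log2 RMA signal (x axis) of the measured redox, NADPH, haem, iron and oxidase genes on each of the 3 untreated arrays; colour and shape give the replicate and the dashed line is the dim level of 7.69. GSTP1 and RAC2 are highest, and GCLM, ME1 and GLRX show replicate 2 well left of replicates 1 and 3.

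Genes of cell death gave both sides of the BCL2 family. Of 13 measured 11 were above the dim level and 6 in the top 25% (median percentile 71.5). PMAIP1, or NOXA, read 11.50, 11.32 and 11.45 and the effector BAX 10.93, 11.03 and 10.97; the survival gene BCL2L1, or BCL-XL, read 10.89, 10.87 and 10.90 and BCL2 9.24, 9.03 and 9.30. BCL2L11, or BIM, which the virus is known to repress, lay at 7.01 ± 0.12 (percentile 26.5), and BIK at 7.08 ± 0.043, both below the dim level. MCL1 and BCL2A1 were not analysed here.

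Promoter composition went with level across the 11385 ranked genes that matched a RefSeq promoter by gene ID. In the lowest 20% of genes by level the median promoter held 6 CG pairs in the 250 bases before the start, and in the highest 20% it held 22. A TATAAA between 40 and 16 bases before the start was present in 5.45% of the lowest 20% and 1.80% of the highest. Spearman's rho between level and the number of CG pairs was 0.35, as a description across genes, which share arrays and are not independent. The octamer ATGCAAAT, on either strand, was held by 1.66% of all promoters. By level, 2.15% of the lowest 20% of genes held it and 1.27% of the highest 20%. Among genes with a promoter, 0 of 14 B-cell transcription factors, 1 of 14 receptor signalling genes and 2 of 24 of the brightest genes held it. Of 10 B-cell surface genes with a promoter in the table, 1 held it, the bright gene CD53. Its promoter is shown with the octamer in capitals, at chr1:110871144-110871191 (plus strand), since POU2AF1 is the coactivator of the factors that bind this element.
CD53: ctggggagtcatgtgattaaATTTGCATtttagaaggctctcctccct

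The spread among the 3 arrays was not even across levels. With the genes split by mean into 10 groups of equal size, the dimmest group had a median SD of 0.091, group 8 had 0.15 and the brightest group 0.12. Replicate 2 ran above the 3-array mean in each of the 5 dimmer groups, by 0.083 in group 3, and below it in each of the 5 brighter groups, with a median difference of -0.12 in group 8. Replicate 1 ran the opposite way. Replicate 2 was the array farthest from the mean of all 3 in 50.7% of genes, replicate 1 in 28.7% and replicate 3 in 11.8%, and the remaining genes had equal values on at least 2 arrays.

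**Figure D5:**
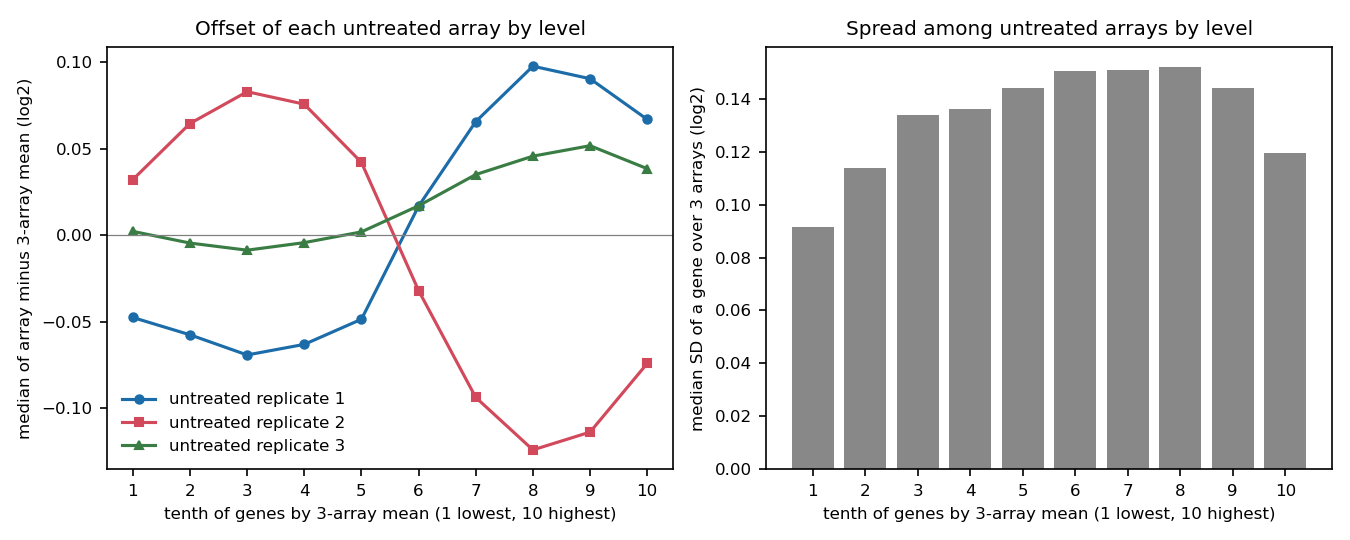
Left, median over genes of each array minus the 3-array mean (y axis, log2) in 10 equal groups of the 14232 genes by level; right, median SD of a gene over the 3 arrays (y axis, log2) in the same groups. Replicate 2 lies above 0 in the 5 dimmer groups and below 0 in the 5 brighter ones, and the SD is highest in group 8 at 0.15.

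Large spreads above the dim level went with a low replicate 2. Of the 167 genes above the dim level with an SD over 0.5, 164 were lowest on replicate 2 and 1 was highest there. After SDHC the widest were ENY2, a subunit of transcription complexes (9.74, 8.28 and 9.59), the septin SEPTIN7 (9.88, 8.31 and 9.33) and CNIH4, a cargo receptor of the secretory path (9.66, 8.42 and 9.78). RALGAPA1 was the exception among the widest 15, reading 9.52, 8.54 and 8.05 with replicate 3 lowest. The genes with the smallest SDs and distinct values included KLF10 (8.59 ± 0.0023), PSMF1, a proteasome inhibitor (11.57 ± 0.0024), and MAX. Ranks moved little: the percentile of a gene differed between its lowest and highest array by a median of 3.62, and by under 10 in 89.6% of genes.

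Gene lists differed in how far replicate 2 lay from the 3-array mean. The lists also differ in level, and they were not matched on it. Over all genes the median was -0.0053, and by level group it ran from 0.083 in group 3 to -0.12 in group 8. The median over members was -0.23 for NADPH-related enzymes, -0.21 for MHC class II, -0.19 for activation molecules and -0.18 for replication, and 0.00055 for B-cell surface genes. It was positive in each of the 7 lists of other cell types, from 0.052 in NK genes to 0.13 in T-cell genes. Quantile normalization of the 3 arrays was added for this measure by list after the data were seen. After it the median was -0.15 for class II, -0.10 for activation molecules, -0.099 for NADPH-related enzymes and -0.031 for replication. The 7 lists of other cell types remained positive, from 0.10 to 0.17, and all genes had a median of 0.069. With arrays centred on their medians the first 4 lists stayed negative and the 7 lists of other cell types stayed positive. All genes then had a median of 0.049. RNA quality and hybridisation records were not used here, and their part in replicate 2 was not tested.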

How the data were processed

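The deposited table holds log2 values that the authors made in Affymetrix Expression Console with gene-level RMA over core probe sets and sketch-quantile normalization, per the labels; RMA corrects background, normalizes arrays and summarises the probes of a cluster. Versions of this software, and the build behind the array annotation, are not given in the labels. The values were used as deposited, for the 3 untreated arrays. Gene names came from the platform annotation in GEO, checked by Entrez identifier against RefSeq. A gene with several clusters was given by the cluster with the highest 3-array mean. Percentile ranks, SDs and the dim level were computed in Python 3.11.15 with pandas 2.3.3 and numpy 2.4.6, and the spread calculation was tested on simulated data. Genes named are the 30 brightest, the panel of lineage, growth and redox markers, in each list up to 6 highest and 3 lowest members, and the 15 largest and 10 smallest SDs; members between these were named for their role, after their values were seen. The 34 lists and their members were chosen with earlier results of these data known. The labels call the replicates separate cultures of 1 line, so the spread does not cover other donors. Promoters came from the RefSeq table (GRCh38.p14), which matched 11385 of 14232 genes and lacked 2847. Alternatives were each array left out, 2 other scalings, other rules for clusters, dim level, rank and spread. Treated arrays, 2408 clusters with several symbols and 5171 without one were left out of the gene ranking.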

Additional observations from a re-analysis of the deposited data

How the results depend on the processing

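The count of 7884 genes above the dim level was 7933 to 8387 with 1 array left out, highest without replicate 2. It fell to 4147 with the 99th percentile of the reference genes in place of the 95th, so the floor sets this count more than the arrays do; olfactory receptors alone gave 9138, and the mean alone 8497. Quantile normalization and centring left it at 7884, as both keep the order within each array. The number of the 34 lists with a median over the 75th percentile was 20, and 19 to 20 with 1 array left out: without replicate 2 the NADPH oxidases went from 76.2 to 74.8. The largest shift of any list median was 3.45 percentile points, for NK genes ranked among all clusters. The median SD of 0.13 was 0.105 without replicate 1, 0.063 without replicate 2 and 0.15 without replicate 3. The range in place of the SD had a median of 0.25. No paired analysis was possible because the 3 arrays are a single group with no contrast. Probe response and background, not the number of arrays alone, limit what a low signal shows, and counts of molecules cannot be had from it.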

Other observations

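Histone genes, grouped after their values were seen, were prominent at baseline. Of 49 genes whose symbols begin with H1-, H2AC, H2BC, H3C or H4C, 34 were above the dim level, against 55.4% of all genes. In the top 25% were 22, in the top 1% 9 and in the 30 brightest 3, with a median percentile of 71.1. Replicate 2 was the lowest array in 40 of the 49 and the highest in 3, H2BC14 among them. Over all genes it was lowest in 40.6% and highest in 35.4%, where genes with equal arrays counted as neither. By 10 equal groups of level, it was lowest in 70.6% of group 8, which holds the histone median percentile. The share was 71.5% in group 9 and 61.0% in the brightest group. Across genes with a matched promoter, the deviation of replicate 2 had a Spearman's rho of -0.41 with level and of -0.036 with the GC share of the promoter, as descriptions across genes.

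The clusters left out of the ranking had middling signals. The 2408 clusters with several symbols had a median of 7.96 and the 5171 without a symbol 7.79, against 8.14 for the ranked genes.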
